A study of Mus musculus with 6 samples.

Results

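The genes described here are 10 genes of transforming growth factor β (TGF-β) signaling, taken by symbol from the 78298 genes of the deposited table. They are the ligands Tgfb1, Tgfb2 and Tgfb3, the receptors Tgfbr1 and Tgfbr2, the signal transducer Smad3, its inhibitor Smad7, and the inhibitor of DNA binding genes Id1, Id2 and Id3. They were measured by paired-end RNA sequencing of RENCA cells, a mouse renal adenocarcinoma line, to ask what overexpression of the water channel AQP1 changes in the transcriptome. The oe-AQP1 group (n = 3) had been transduced with a lentivirus carrying the mouse Aqp1 coding sequence behind the ubiquitin C promoter, and the oe-NC group (n = 3) with the empty vector. In both groups, 2 μg/mL puromycin was added 48 hours after transduction and kept for 14 days, and the labels name no further treatment. The culture medium contained serum, penicillin and streptomycin. RNA was taken near confluence, and the labels put all 6 samples in the same batch. The model has limits. A constitutive promoter drives Aqp1, each group is a selected population with no untransduced RENCA sample beside it, and the labels do not say whether the replicates came from separate transductions.

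TGF-β ligands are secreted in a latent form, are released by proteases and integrins, and bind a type II receptor that recruits and phosphorylates the type I receptor TGFBR1. TGFBR1 then phosphorylates SMAD2 and SMAD3, which join SMAD4 and act on target genes in the nucleus, while the related bone morphogenetic proteins (BMPs) signal through SMAD1 and SMAD5. SMAD7 and SMAD6 feed back on the receptors, and the ID proteins bind basic helix-loop-helix factors and keep them from DNA. ID genes are classical BMP targets, and in kidney epithelium TGF-β is known for its part in fibrosis and in epithelial-mesenchymal transition.

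Total expected counts were 19758517.73, 21920898.67 and 20468700.71 in oe-AQP1 samples 1 to 3, and 19788719.78, 18385714.02 and 21396273.57 in oe-NC samples 1 to 3. Aqp1 itself had 7713, 8545 and 7838 counts in oe-AQP1 and 41, 25 and 45 in oe-NC, so every sample matched its label. Its log2 fold change (log2FC, oe-AQP1 over oe-NC) was 7.70 (SE 0.156, limma-voom adjusted p = 1.34e-10). The control sample oe-NC 1 stood apart from the other controls. Its chi-square per gene, in which sampling noise alone gives a value near 1, was 9.46 against oe-NC 2 and 11.0 against oe-NC 3, while the other pairs within a group lay between 1.71 and 2.04. Among the 9 of the 10 genes that were tested, oe-NC 1 was the highest control for 7. The limma-voom tests of the 9 genes are therefore given with and without that sample. Summed levels, shares, ranks, correlations and marker lists include it.

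The renal identity of the cells was checked against marker genes. Pax8 had between 3053.99 and 3630 counts, Cdh16 between 2177 and 3540 and Krt8 between 5969 and 8279, whereas the epithelial adhesion gene Epcam was at 0 in all 6 samples. Of 9 renal and epithelial markers, 8 were tested, 0 were higher by limma-voom, edgeR or DESeq2 (0 also at an unadjusted p under 0.05). Lower in oe-AQP1 were 5 by limma-voom and edgeR (Krt19, Cdh1, Cdh16, Krt8 and Krt18) and 4 by DESeq2. Their summed level was 858.8, 843.7 and 829.8 CPM (counts scaled to library size) in oe-AQP1 and 1114, 1018 and 1004 CPM in oe-NC, with Krt8 the most abundant. Of 8 macrophage markers, Ptprc, Adgre1, Itgam, Tyrobp and Fcer1g had at most 3 counts in any sample. The list summed to between 36.53 and 39.52 CPM in oe-AQP1 and between 38.82 and 42.18 CPM in oe-NC, most of it Cd68, and Csf1r was lower in oe-AQP1. Of 8 fibroblast markers, Pdgfra, Col3a1, Dcn, Lum and Thy1 had at most 3 counts in any sample. That list summed to 58.41, 56.57 and 58.75 CPM in oe-AQP1 and 65.72, 54.71 and 51.65 CPM in oe-NC, led by Pdgfrb, with Pdgfrb higher and Col1a1 lower. Of 5 endothelial markers, Pecam1 alone was tested and was not called, the other 4 had at most 3 counts, and the list summed to between 0.9301 and 1.728 CPM. Several markers of macrophages, fibroblasts and endothelium were thus at or near 0 in both groups, while others were well counted in all samples. These were Cd68 (576 to 777 counts), Csf1r (55.57 to 202.28), Pdgfrb (617 to 967) and Col1a1 (246 to 509). Of them, Csf1r (log2FC −1.51), Pdgfrb (log2FC 0.34) and Col1a1 (log2FC −0.73) differed between the groups. The part of these marker shifts, the epithelial one included, in the results below was not tested, and in bulk samples fewer cells of a type and less RNA per cell cannot be told apart.

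Of the 10 genes, 9 passed the filter on low counts, and 5 of these were lower in oe-AQP1 at a false discovery rate (FDR, Benjamini-Hochberg over 15522 tested genes) under 0.05: Id3, Id1, Id2, Smad7 and Tgfb3. Across all tested genes, 16.6% were lower and 16.0% higher. None of the 9 was called higher by limma-voom, edgeR or DESeq2 (0 by each), and 1, Tgfb2, was higher at an unadjusted p under 0.05. With the added requirement of an absolute log2FC above 1, Id1 and Id3 were the 2 genes that passed downward, where 0.844% of all genes did, and 0 passed upward, where 4.39% did. The CPM values of the groups did not overlap for 8 of the 9 genes, against 47.3% of all tested genes. The median log2FC was −0.26 over the 9 genes and 0.002 over all tested genes.

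**Figure D1:**
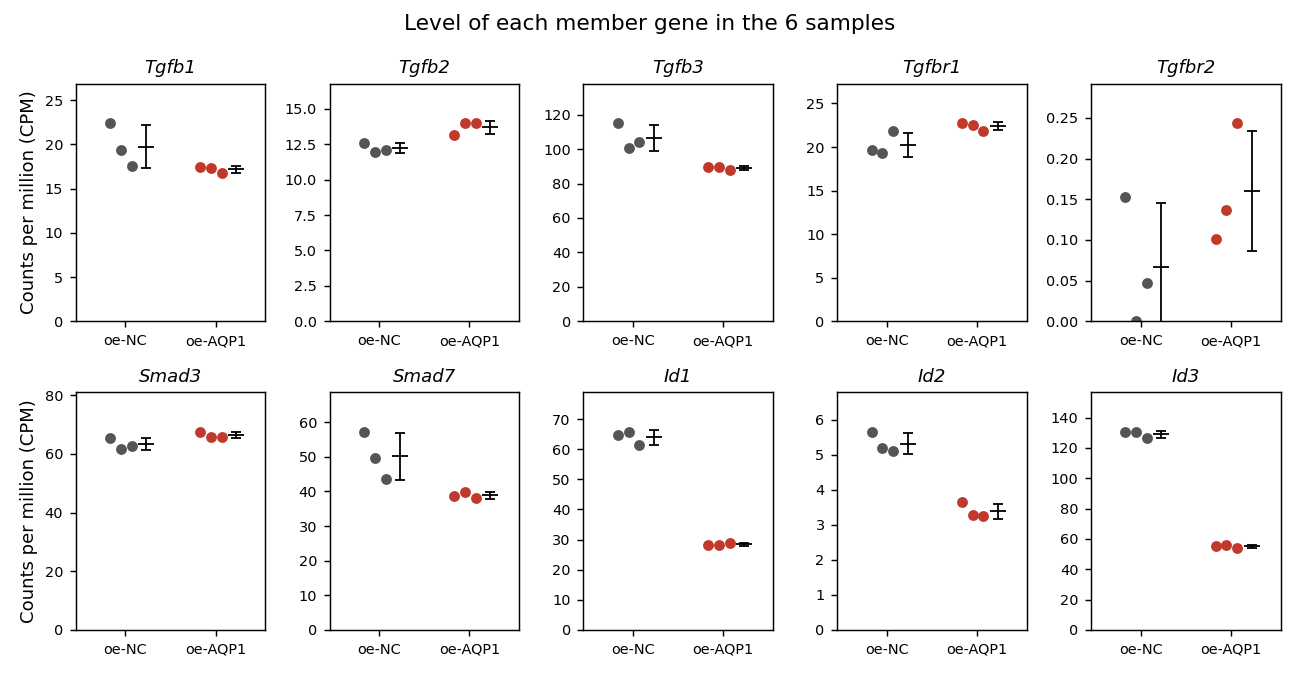
CPM (vertical axes, each from 0) of each of the 10 genes in the 3 oe-NC samples (grey points) and the 3 oe-AQP1 samples (red points), with the group mean and SD in black (bars stop at the axis). Id1, Id2 and Id3 lie lower in every oe-AQP1 sample than in any oe-NC sample, Tgfbr1 overlaps between the groups, and Tgfbr2 is near 0 throughout.

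Among the ligands, Tgfb3 stood at 89.67, 89.82 and 87.98 CPM in oe-AQP1 and at 114.9, 100.5 and 104.4 CPM in oe-NC. The 3 oe-AQP1 values were lower than every control value, and the controls spread more widely, with oe-NC 1 highest. Tgfb3 fell by 16.3% (log2FC −0.26, SE 0.053, limma-voom adjusted p = 0.00443), and without oe-NC 1 the log2FC was −0.20 (adjusted p = 7.09e-05). Tgfb1, the ligand most studied in fibrosis, stood at 17.5, 17.28 and 16.73 CPM in oe-AQP1 and at 22.37, 19.31 and 17.55 CPM in oe-NC. Its groups came within a small gap of each other and only oe-NC 1 lay far above. The Tgfb1 log2FC was −0.19 with a 95% interval from −0.393 to 0.011 (limma-voom adjusted p = 0.137). It was −0.096 without oe-NC 1 (adjusted p = 0.332) and −0.28 without oe-NC 3 (adjusted p = 0.0367), the 1 setting in which it was called. Tgfb1 counts were not whole in 5 samples, such as 345.95 in oe-AQP1 1, so they were partly estimated and its level is less certain. Tgfb2 stood at 13.15, 13.96 and 13.96 CPM in oe-AQP1 and at 12.58, 11.93 and 12.10 CPM in oe-NC. All oe-AQP1 values were above the controls, yet the difference missed the threshold, with a log2FC of 0.17 and a 95% interval from 0.002 to 0.33 (limma-voom adjusted p = 0.114, and 0.0938 without oe-NC 1).

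Per transcript length, as length-normalised transcript levels (TPM), Tgfb3 made up 69.6% ± 1.3 of the summed ligand level in oe-NC and 67.4% ± 0.056 in oe-AQP1 (SD, n = 3 each). Tgfb1 accounted for 24.1% ± 1.5 and 24.4% ± 0.31, and Tgfb2 for 6.34% ± 0.30 and 8.22% ± 0.33. These shares use the canonical transcript length. With the length of all exons, the oe-NC means were 79.4 TPM for Tgfb3, 15.1 for Tgfb1 and 7.567 for Tgfb2, which gives Tgfb1 a smaller share. The summed ligand level was 84.9 ± 8.5 TPM in oe-NC and 74.4 ± 0.70 TPM in oe-AQP1. In oe-NC it was 94.67 TPM in oe-NC 1 and 80.11 and 79.92 TPM in oe-NC 2 and oe-NC 3, so the gap is smaller without oe-NC 1. Of the ligands, RENCA cells of both groups thus carried mostly Tgfb3 message.

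Of the receptors, Tgfbr1, the type I kinase, stood at 22.71, 22.56 and 21.84 CPM in oe-AQP1 and at 19.61, 19.26 and 21.86 CPM in oe-NC. The groups overlapped, since oe-NC 3 was as high as oe-AQP1 3. The Tgfbr1 log2FC was 0.14 with a 95% interval from −0.01 to 0.295 (limma-voom adjusted p = 0.142, and 0.207 without oe-NC 1). Tgfbr2, the type II receptor that binds the ligand, had 2, 3 and 5 counts in oe-AQP1 and 3, 0 and 1 in oe-NC. It was close to undetected in every sample and did not pass the filter. Its summed counts, 10 against 4, gave a ratio per library size of 2.40 with an exact 95% interval from 0.691 to 10.5 that covers counting error only, so no difference was detectable at this depth.

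The level of Tgfbr2 was low beside the other type II receptors of the superfamily. Within the summed TPM of 5 type II receptors, Tgfbr2 made up 0.080% ± 0.098 in oe-NC and 0.189% ± 0.081 in oe-AQP1. The activin receptor Acvr2a gave 48.5% ± 1.1 and 52.1% ± 0.19, and the BMP receptor Bmpr2 44.4% ± 1.4 and 44.2% ± 0.52. Tgfbr1 took 7.57% ± 0.57 and 8.75% ± 0.12 of the type I receptor level, where the BMP receptor Bmpr1a led with 55.6% ± 3.1 and 54.4% ± 0.49. In these cells the receptor messages were thus mainly those of activin and BMP receptors.

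Smad3, which carries the TGF-β signal, stood at 67.52, 65.94 and 65.76 CPM in oe-AQP1 and at 65.47, 61.55 and 62.86 CPM in oe-NC. The lowest oe-AQP1 value lay just above the highest control. Its log2FC was 0.07 with a 95% interval from −0.03 to 0.168 (limma-voom adjusted p = 0.27, and 0.0677 without oe-NC 1). Smad7, the inhibitory SMAD that TGF-β and BMP both induce, stood at 38.64, 39.97 and 37.98 CPM in oe-AQP1 and at 57.21, 49.73 and 43.68 CPM in oe-NC. All oe-AQP1 samples were below all controls, and the controls were far more spread than the oe-AQP1 samples. Smad7 fell by 21.9% (log2FC −0.36, SE 0.088, limma-voom adjusted p = 0.0111). Without oe-NC 1 the log2FC was −0.255 (adjusted p = 0.000936), and without oe-AQP1 3 it was −0.342 and just missed the threshold (adjusted p = 0.0503).

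Of the 6 other SMAD genes, 5 were tested, with 0 higher (0 also at an unadjusted p under 0.05, and by edgeR and DESeq2) and 1 lower, and a median log2FC of −0.073. The 1 lower gene was Smad6, the inhibitory SMAD of the BMP branch, at 21.75, 21.65 and 20.38 CPM in oe-AQP1 and 47.94, 33.27 and 31.15 CPM in oe-NC. Its log2FC was −0.79 (SE 0.146, limma-voom adjusted p = 0.00236) and −0.595 without oe-NC 1, which was its highest sample (adjusted p = 1.8e-07). Without oe-NC 1, 2 of these SMAD genes were lower. Smad9 had at most 3 counts in any sample.

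Id3 and Id1 showed the largest changes of the 9 tested genes, and Id2 the next largest. Id3 stood at 55.13, 55.89 and 54.08 CPM in oe-AQP1 and at 130.6, 130.5 and 126.5 CPM in oe-NC. Within each group the 3 samples were close together, and a wide gap lay between the groups. Id3 was 2.35-fold lower (log2FC −1.23, SE 0.041, limma-voom adjusted p = 6.46e-09). Id1 stood at 28.27, 28.15 and 28.94 CPM in oe-AQP1 and at 64.86, 65.77 and 61.27 CPM in oe-NC, again with no overlap and little spread. It was 2.24-fold lower (log2FC −1.17, SE 0.052, limma-voom adjusted p = 6.93e-08). Id2, by far the lowest of the ID genes, stood at 3.641, 3.274 and 3.259 CPM in oe-AQP1 and at 5.655, 5.198 and 5.113 CPM in oe-NC. Its groups did not overlap either, and it was 1.57-fold lower (log2FC −0.65, SE 0.124, limma-voom adjusted p = 0.00286). Its counts were between 67 and 111, which leaves it the widest error of the ID genes. The library that stood apart made little difference here: without oe-NC 1 the log2FC was −1.22 for Id3, −1.15 for Id1 and −0.605 for Id2 (limma-voom adjusted p = 5.17e-16, 3.49e-13 and 0.00373). For single genes, an exact two-sided permutation test on the CPM of 3 against 3 samples cannot go below 0.1, and it gave 0.1 for each of the 8 tested genes whose groups did not overlap, called or not, and 0.2 for Tgfbr1.

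The summed ID level was 365 ± 15 TPM in oe-NC and 162 ± 0.95 TPM in oe-AQP1. Id3 made up 63.7% ± 0.45 of it in oe-NC and 62.3% ± 0.70 in oe-AQP1, Id1 34.9% ± 0.46 and 35.7% ± 0.71, and Id2 1.36% ± 0.061 and 1.99% ± 0.13. Id1 and Id3 thus kept nearly the same proportion to each other while their sum fell.

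Ordered by TPM in oe-NC, the 10 genes ran Id3 (232 ± 8.6), Id1 (127 ± 6.6), Tgfb3 (59.0 ± 5.4), Smad3 (27.5 ± 1.4), Smad7 (25.7 ± 4.0), Tgfb1 (20.5 ± 3.0), Tgfbr1 (7.95 ± 0.47), Tgfb2 (5.36 ± 0.27), Id2 (4.97 ± 0.39) and Tgfbr2 (0.0183 ± 0.022; SD, n = 3). Neighbours whose samples overlapped were Smad3 with Smad7, Smad7 with Tgfb1, and Tgfb2 with Id2. In oe-AQP1 the order was the same and no neighbours overlapped. Id3 was at 101 ± 1.5 TPM there, and Id1 (57.6 ± 1.1 TPM) lay close to Tgfb3 (50.2 ± 0.44 TPM). With the length of all exons in place of the canonical transcript Id1 and Tgfb3 changed places in oe-AQP1.

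Over the 6 samples, the genes of at least 10 CPM whose log2 CPM followed Id3 most closely, among 9755 compared, were Srgap3 (Pearson r = 0.9996), Scd2 (r = 0.9994) and Odc1 (r = 0.9994). Srgap3 averaged 27.7 CPM in oe-AQP1 and 45.4 CPM in oe-NC. Scd2, a fatty acid desaturase, averaged 477 and 846 CPM, and Odc1, the first enzyme of polyamine synthesis, 506 and 714 CPM. The same coefficient was 0.9986 between Id3 and Id1 and 0.9803 between Id3 and Id2, and all of these rest on the gap between groups of 3 samples.

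In the mouse genome build GRCm39, Id1 lies at chr2:152566218-152579544 on the plus strand, Id2 at chr12:25143798-25147282 on the minus strand, Id3 at chr4:135870808-135873066 on the plus strand and Tgfb3 at chr12:86102756-86126301 on the minus strand. Exonic bases of each are shared with annotated genes on the opposite strand, 1 for Id1 (Gm75058), 2 for Id2 (Gm36287 and Gm59395), 1 for Id3 (Gm57159) and 3 for Tgfb3 (Ttll5, Gm37804 and Gm48008). The same holds for Tgfb2 (Gm29491) and for Tgfbr2 (Gm4668), whose few counts make it matter more, and for the pathway genes Eng (Fpgs) and Acvr1c (Gm13544). Whether reads were counted by strand is not given in the sources used here, so reads of these partners cannot be told apart from those of the genes named.

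Because the ID genes moved together, the bases upstream of their starts were compared, with RefSeq promoter windows on build GRCm38.p6, whose coordinates are not those of GRCm39. Entries were found for 7 of the 10 genes, and Id1, Tgfb3 and Smad7 had none. The 250 bases before each start were searched on both strands for GGCGCC, a GC-rich element bound by SMAD proteins, and for CAGAC, which holds the short SMAD box. Of 32851 promoters of this length, 9.59% held GGCGCC and 42.2% held CAGAC. Below are Id2 (chr12:25096093-25096342, minus strand) and Id3 (chr4:136143572-136143821, plus strand), 5′ to 3′, with both motifs in capitals; the motifs did not overlap each other.
Id2: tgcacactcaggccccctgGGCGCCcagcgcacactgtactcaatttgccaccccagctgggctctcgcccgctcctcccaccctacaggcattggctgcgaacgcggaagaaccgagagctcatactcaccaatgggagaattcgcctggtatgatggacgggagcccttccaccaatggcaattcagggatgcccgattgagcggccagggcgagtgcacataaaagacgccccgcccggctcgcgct
Id3: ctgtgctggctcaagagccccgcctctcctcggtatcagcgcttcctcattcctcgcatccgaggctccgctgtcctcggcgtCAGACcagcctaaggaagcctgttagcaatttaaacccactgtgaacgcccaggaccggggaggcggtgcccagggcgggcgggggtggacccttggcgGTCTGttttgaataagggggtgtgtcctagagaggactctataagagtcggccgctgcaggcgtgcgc
Id2 held GGCGCC 1 time, from base 20 of its window, and no CAGAC. Id3 held CAGAC 2 times, from bases 84 and 183, and no GGCGCC, so the windows shared neither motif. The E-box CANNTG, in 66.2% of promoters, was present 1 time for Id2 and absent for Id3. CCAAT, in 33.8% of promoters, was present 3 times for Id2 and absent for Id3, and TATAAA, in 12.4%, was in neither. These are matches of letters in a short window and describe the sequence only.

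ID proteins act by pairing with E proteins, so these were looked at as well. Of 4 genes in the list of E proteins and helix-loop-helix partners, 3 were tested, 1 was higher and 0 were lower (0 also at an unadjusted p under 0.05, and by edgeR and DESeq2). Tcf4, an E protein that ID proteins bind, stood at 37.38, 37.06 and 36.82 CPM in oe-AQP1 and at 26.65, 25.06 and 28.01 CPM in oe-NC, with a log2FC of 0.48 (SE 0.058, limma-voom adjusted p = 0.000146). The list's median log2FC was 0.081, and Id4 had at most 3 counts in any sample.

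All 6 tested genes of the 14 in the BMP target list were lower in oe-AQP1, and 4 of them are among the 10 genes (Id1, Id2, Id3 and Smad7), so the list adds Smad6 and Atoh8. Its median log2FC was −0.72. The other 8 genes had at most 3 counts in any sample, and without oe-AQP1 3 the count of lower genes was 4. Atoh8 (log2FC −0.46, limma-voom adjusted p = 0.0344) lost its call in 8 of 16 other settings, DESeq2 and the fit with the replicate number among them, with adjusted p up to 0.133. In those settings its log2FC was about as large, between −0.523 and −0.393. Of 19 TGF-β target genes, 13 were tested, 2 were higher (Skil and Zeb1) and 7 lower, with a median log2FC of −0.20. The 7 include Smad7, already among the 10 genes, and Thbs1, which is also in the storage and activation list below. Skil is also in the list of intracellular modulators. The collagen gene Col1a1 (log2FC −0.73) and the matricellular gene Ccn2 (log2FC −0.43) were among the lower genes, while Skil, a SMAD corepressor, was higher (log2FC 0.26). Zeb1, a repressor of epithelial genes, was called higher (log2FC 0.15, limma-voom adjusted p = 0.0451) but lost the call in 8 of 16 other settings, with adjusted p up to 0.193. Its log2FC in those settings was about as large, between 0.131 and 0.178. Without oe-AQP1 3 the count of lower TGF-β targets went from 7 to 4, while the share of all tested genes called lower went from 16.6% to 11.1%.

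Of 11 genes for storage and activation of TGF-β, 8 were tested, 1 was higher and 5 were lower, with a median log2FC of −0.35. Ltbp1, which anchors latent TGF-β in the matrix, stood at 10.52, 11.01 and 12.11 CPM in oe-AQP1 and at 2.802, 2.189 and 2.205 CPM in oe-NC. It was 4.66-fold higher (log2FC 2.22, SE 0.147, limma-voom adjusted p = 1.67e-06), the opposite direction to its relative Ltbp3 (log2FC −0.61, SE 0.092). Some counts of both genes were not whole and so partly estimated, such as 249.08 for Ltbp1 in oe-AQP1 3 and 1395.29 for Ltbp3 in oe-AQP1 1. Itgb6 and Itgav, which form an integrin that releases latent TGF-β, were both lower (log2FC −1.06, SE 0.155, and −0.48, SE 0.048). Furin, the protease that cleaves the precursor, and Thbs1, an activator, were also lower, with a log2FC of −0.37 for Furin. Without oe-AQP1 1 or oe-AQP1 3 the Furin log2FC was about as large (−0.362 and −0.368) but missed the threshold (limma-voom adjusted p = 0.0526 and 0.055), and without oe-NC 1 it was −0.237 (adjusted p = 2.91e-05). The called storage and activation genes were thus lower except Ltbp1, where 16.6% of all tested genes were lower and 16.0% higher.

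**Figure D2:**
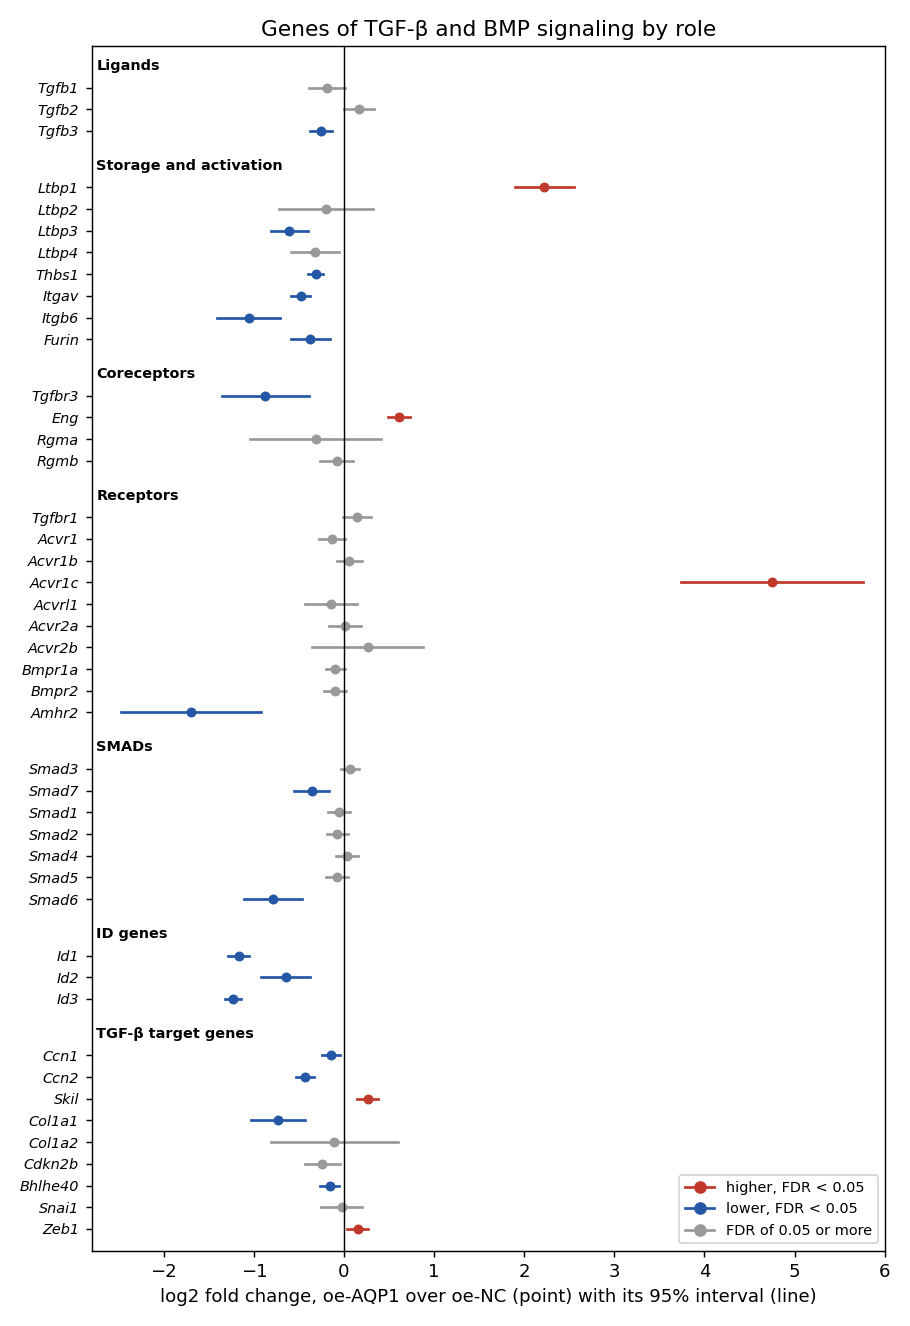
Log2 fold change of oe-AQP1 over oe-NC (horizontal axis, points) with its 95% interval (lines) for 44 tested genes of the pathway lists, ordered by role and each drawn once. Red marks genes called higher and blue genes called lower at an FDR under 0.05. The ID genes and Smad6 lie on the lower side and Ltbp1, Acvr1c and Eng on the higher side. Acvr1c and Amhr2 passed the low-count filter only through the group in which they were high, so the filter itself favoured a difference.

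Of 6 coreceptors, 4 were tested, 1 was higher and 1 lower, with a median log2FC of −0.20. Eng, endoglin, stood at 271.9, 277.5 and 269.6 CPM in oe-AQP1 and at 196.7, 172.3 and 169.1 CPM in oe-NC (log2FC 0.61, SE 0.054, limma-voom adjusted p = 1.65e-05). Tgfbr3, betaglycan, moved the other way at a low level (log2FC −0.88, SE 0.217, limma-voom adjusted p = 0.0115). Of 10 BMP and activin receptors, 9 were tested, 1 was higher and 1 lower, with a median log2FC of −0.095; without oe-NC 1, 3 were lower. Acvr1c had 18, 22 and 20 counts in oe-AQP1 and 1, 0 and 0 in oe-NC, a ratio per library size of 57.5 with an exact 95% interval from 9.94 to 2310 that covers counting error only. Amhr2 had 7, 6 and 8 counts against 16, 26 and 27. Both passed the low-count filter only through the group in which they were high, so the filter itself favoured a difference and their calls carry little weight. Neither passed a filter of at least 10 counts in every sample. With that filter 0 receptors of this list were higher and 0 lower.

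Of 25 BMP, GDF and activin ligands, 9 were tested and 13 had at most 3 counts in any sample. Of those tested, 1 was higher and 0 were lower (0 also at an unadjusted p under 0.05, and by edgeR and DESeq2), with a median log2FC of 0.02. The higher gene was Gdf2, with 11, 15 and 12 counts in oe-AQP1 and 2, 0 and 2 in oe-NC (ratio per library size 9.11, exact 95% interval 3.28 to 35.1, counting error only). Named after its values were seen, Gdf2 passed the low-count filter only through oe-AQP1, and under the filter of 10 or more counts per sample 0 ligands were higher. Without oe-NC 1, 2 were higher. Of 16 secreted and membrane antagonists, 6 were tested, 1 was higher (Fstl1, log2FC 0.76) and 2 were lower (Fstl3, log2FC −0.43, and Twsg1, log2FC −0.33), with a median log2FC of −0.19; without oe-NC 1, 2 were higher. Noggin (Nog), Grem1 and Fst were among the 8 antagonists with at most 3 counts in any sample. Of 14 intracellular modulators, 13 were tested, 5 were higher and 2 lower, with a median log2FC of 0.053. The higher ones included the corepressor Tgif1 (log2FC 0.30) and the ubiquitin ligase Nedd4l (log2FC 0.27), and the lower ones were Wwp1 (log2FC −0.37) and Fkbp1a (log2FC −0.18).

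Of 110 genes that the deposited annotation puts in the KEGG TGF-β signaling pathway, which include the 10, 77 were tested, 13 were higher and 18 lower, with a median log2FC of −0.053. Beside those described, Tnf was among the higher genes (log2FC 1.87) and Fmod, a matrix proteoglycan that binds TGF-β, among the lower (log2FC −1.34). Over all lists without the 10 genes, 102 of 157 were tested, 20 were higher and 28 lower, and leaving out 1 sample moved these counts together with those of all genes. Without oe-NC 1 they were 25 and 35, with 19.4% of all tested genes higher and 20.7% lower, and without oe-AQP1 3 they were 15 and 23, with 11.8% and 11.1%. Each pathway gene named as higher or lower kept its direction and its call without oe-NC 1. The median log2FC of these genes, −0.072, lay near the 0.002 of all tested genes.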

How the data were processed

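RNA sequencing of 6 RENCA samples was used. The authors deposited expected counts per gene, of which between 30.062% and 31.914% of those above 0 were not whole. The submitters' processing notes name fastp, HISAT2, featureCounts, Subread and the builds GRCm38 and mm10, while the study's methods name GRCm39. How reads were shared between genes is not given in the sources used here, and 78168 of 78298 gene IDs were found in GENCODE M39. A pair of group mean columns (2) was not used.

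Expected counts were rounded to whole numbers, filtered with filterByExpr, scaled by TMM (factors 0.9933 to 1.006) and tested with limma-voom (limma 3.58.1, edgeR 4.0.16, R 4.3.3), with Benjamini-Hochberg adjustment over 15522 genes. CPM is per TMM-scaled library, and TPM uses the Ensembl canonical transcript length. DESeq2 1.42.0 and edgeR's quasi-likelihood test were alternatives. The fitting code was tested on simulated data.

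Groups and replicate numbers came from the titles. The labels call the replicates biological but name no separate transductions, so p-values measure only the spread between these samples, which may be technical. The genes and lists were chosen with earlier results of these data known. Named pathway genes were, per list, up to 3 in each direction with the largest log2FC, given FDR under 0.05 and 20 or more counts on average where they were higher. Gdf2, Atoh8, Furin and Thbs1 fall outside this and were named after their values were seen. A named gene is not reported here. Genes most like the called gene with the largest fall were the 3 with the highest Pearson r; no called gene rose, so the same choice for a rise gave none.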

Additional observations from a re-analysis of the deposited data

How the results depend on the processing

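Across 16 other fits (tests, scalings, filters, unrounded counts, the replicate block and leaving out each sample), Id1, Id2, Id3 and Tgfb3 kept their direction and their call. Smad7 lost its call without oe-AQP1 3 and Tgfb1 gained one without oe-NC 3; the causes were not tested. Leaving out each sample gave a log2FC from −1.248 to −1.218 for Id3, −1.2 to −1.149 for Id1, −0.699 to −0.605 for Id2, −0.46 to −0.255 for Smad7 and −0.299 to −0.202 for Tgfb3. The number of the 10 genes called lower then ran from 4 to 6.

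Requiring an absolute log2FC above 1 left 681 higher and 131 lower of all genes and 2 lower of the 10 genes. It left 4 higher and 3 lower of the other pathway genes. Among these, Acvr1c, Gdf2 and Amhr2 passed the low-count filter only through the group in which they were high, so the filter itself favoured a difference. An FDR under 0.01 left 1570 higher and 1572 lower of all genes. These are stricter thresholds by construction.

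Samples with the same replicate number did not deviate together (r = 0.015, −0.020 and −0.073). Pairs with different numbers gave r from −0.045 to 0.068. With 3 samples per group, this cannot tell whether samples of the same number were handled together. With the replicate block, 2346 genes were higher and 2479 lower, 5 of the 10 genes were lower and 0 higher, 19 and 28 other pathway genes were higher and lower, and Aqp1 had a log2FC of 7.67. Depth limits Tgfbr2, Acvr1c, Amhr2 and Gdf2, which rest on few counts.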
